A study of Mus musculus with 15 samples.

Results

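HSF1 binding in wild type mouse brown adipose tissue (BAT) after 40 min of cold was mapped in a first and a second set of ChIP libraries, and the sites described here are those called in the second set alone. A region counts as second-set-only when both libraries of the second set have a peak there and neither library of the first set does. By this rule 7989 of the 16645 regions found in the 4 wild type libraries at 40 min qualified, against 18176 regions over all 10 HSF1 libraries of the series. Of 33 heat shock chaperone and co-chaperone genes, 26 had a region called in all 4 libraries near a gene end and 5 a second-set-only one, whereas 10 of 20 integrated and oxidative stress genes had a second-set-only region and none a region of all 4 libraries. Over all protein-coding genes, 11.2% had a second-set-only region near an end and 1.7% a region of all 4 libraries. The stress list had the highest second-set-only share of 30 gene lists and was not alone in standing above 11.2%. Early genes had 42.3% and glucose transport and glycolysis genes 40.9%, while chaperonin TRiC subunits and leukocyte markers were among the lists with none.

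The 4 libraries carry the same labels: wild type genotype, BAT, 40 min of cold and the same HSF1 antibody from Cell Signaling Technology. The titles of the second set repeat the replicate numbers 1 and 2 of the first with a suffix, and the labels do not say whether both sets come from the same animals, chromatin or sequencing run. Age and sex of the mice are not among the labels. Tissue was crosslinked with 2 mM DSG for 25 min and then 0.8% formaldehyde for 12 min. The 6 other HSF1 libraries, 2 each from wild type BAT at room temperature, wild type BAT after 4 h of cold and TXNIP KO BAT after 40 min of cold, were not used to choose the regions. The labels give TXNIP KO with no detail of the allele. BAT also holds endothelial, immune, nerve and adjoining muscle cells, so a site cannot be assigned to adipocytes from these lists.

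HSF1 is the main transcription factor of the heat shock response. When unfolded proteins accumulate it forms trimers and binds heat shock elements, which are runs of the unit nGAAn in alternating orientation, at genes for chaperones such as HSP70, HSP90 and the chaperonins. Brown fat burns fatty acids and glucose in its mitochondria to make heat, and cold drives this through sympathetic signalling.

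A few promoter sequences serve as examples of shared and second-set-only sites. Each stretch is 120 bases long, reads 5′ to 3′ on the strand of the gene, lies before the annotated start and comes from RefSeq (GRCm38.p6). It is part of the promoter window that holds the peak summit, and the summit can fall just outside the stretch. In the first group the peak was called in all 4 libraries, and capitals mark GAANNTTC or TTCNNGAA, a pair of inverted heat shock units. The genes were picked after their values were seen, to show a match or its absence, so they illustrate the motifs and compare nothing.
Hspe1, chr1:55088003-55088122, plus strand: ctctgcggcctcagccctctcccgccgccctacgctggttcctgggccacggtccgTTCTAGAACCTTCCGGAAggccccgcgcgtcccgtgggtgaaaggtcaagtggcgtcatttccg
Hsph1, chr5:149636337-149636456, minus strand: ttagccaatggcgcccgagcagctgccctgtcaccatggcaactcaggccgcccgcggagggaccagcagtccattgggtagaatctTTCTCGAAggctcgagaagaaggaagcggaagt

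In the next group the peak was called in the second set only and belongs to the strongest of 4 classes into which those regions were divided by rank. Each window holds the same 2-unit element, also in capitals. Each stretch shows 1 match, as that of Hsph1 does above, while that of Hspe1 shows 3 overlapping matches in a single run. The full windows of Hspe1 and Hsph1 both hold an element of 3 inverted units, which the printed Hsph1 stretch does not show. The windows of the second-set-only genes in this group hold none.
Cidec, chr6:113435835-113435954, minus strand: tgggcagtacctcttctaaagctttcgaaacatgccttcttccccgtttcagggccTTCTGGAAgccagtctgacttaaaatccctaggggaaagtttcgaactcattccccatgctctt
Plin1, chr7:79732907-79733026, minus strand: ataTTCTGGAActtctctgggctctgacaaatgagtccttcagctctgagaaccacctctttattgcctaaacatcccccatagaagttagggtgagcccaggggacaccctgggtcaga
Clec14a, chr12:58269328-58269447, minus strand: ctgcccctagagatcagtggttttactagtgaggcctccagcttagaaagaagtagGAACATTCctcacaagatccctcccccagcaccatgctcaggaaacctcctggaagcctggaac
Ccn1, chr3:145650004-145650123, minus strand: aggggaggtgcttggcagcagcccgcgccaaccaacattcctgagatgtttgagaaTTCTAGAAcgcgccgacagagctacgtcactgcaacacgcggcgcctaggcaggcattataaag
Msi2, chr11:88718356-88718475, minus strand: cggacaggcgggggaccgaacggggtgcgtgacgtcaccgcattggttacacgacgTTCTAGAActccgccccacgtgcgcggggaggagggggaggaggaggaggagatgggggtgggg

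In the last group the peak was called in the second set only and belongs to the weakest class. No 2-unit element lies in the 300-base promoter window of any of these 4 genes, and capitals mark the GC box GGGCGG instead. GC boxes are not particular to these genes, since the windows of Hspe1, Hsph1, Ccn1 and Msi2 hold one too.
Cpt2, chr4:107923590-107923709, minus strand: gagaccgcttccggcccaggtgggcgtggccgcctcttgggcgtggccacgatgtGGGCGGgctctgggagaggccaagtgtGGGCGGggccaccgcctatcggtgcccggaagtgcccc
Tpi1, chr6:124814163-124814282, minus strand: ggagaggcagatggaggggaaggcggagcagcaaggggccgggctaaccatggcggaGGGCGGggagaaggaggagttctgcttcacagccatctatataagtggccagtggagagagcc
Rheb, chr5:24842362-24842481, minus strand: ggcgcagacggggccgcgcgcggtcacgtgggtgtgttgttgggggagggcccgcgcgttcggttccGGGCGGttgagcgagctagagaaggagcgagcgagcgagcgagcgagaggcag
Fosb, chr7:19310046-19310165, minus strand: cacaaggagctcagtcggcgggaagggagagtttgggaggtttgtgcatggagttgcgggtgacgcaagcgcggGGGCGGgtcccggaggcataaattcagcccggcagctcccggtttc

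The second set gave far longer peak lists. Replicates 1 and 2 of the first set held 2287 and 1670 peaks on chromosomes 1 to 19, X and Y (mean 1979 ± 436, SD, n = 2), and those of the second set held 12644 and 14583 (mean 13614 ± 1371, SD, n = 2). The groups did not overlap, and the second mean was 6.88 times the first. For log2 peak number the exact permutation test (two-sided) gave p = 0.33, the smallest that 2 libraries against 2 allow. Nothing says that libraries of a set are from separate animals, so the spread behind this p may be technical. Peaks covered 1.41 and 0.978 Mb in the first set and 8.92 and 11.1 Mb in the second. Peak lists carry no read counts and the depth is therefore unknown, and the input used for each list is not given in the sources used here.

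What the first set recovered depended on strength. Each second-set list was ordered by −log10 p and divided into 10 equal bins. In the strongest bin, 99.1% of the peaks in replicate 1 and 97.2% in replicate 2 were also called in at least 1 first-set library. The share was 61.3% and 50.2% in the next bin, 21.4% and 12.1% in the one after, and 0.633% and 0.274% in the weakest. In the other direction the first set had almost nothing of its own, with 1 region called in both of its libraries and in neither second-set library. Regions called in all 4 libraries numbered 1461, and a further 917 were called in the second set and 1 first-set library, 757 with replicate 1 and 160 with replicate 2. Another 6256 were called in a single second-set library, 2099 in replicate 1 and 4157 in replicate 2.

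With each list cut to its strongest 1670 peaks, the length of the shortest list, 60 regions were second-set-only, 26 were first-set-only and 1227 were in all 4 libraries. The cut itself limits how many regions can be second-set-only, and the part of list length in these calls was not tested. A missing call is not a measured absence of HSF1.

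**Figure D1:**
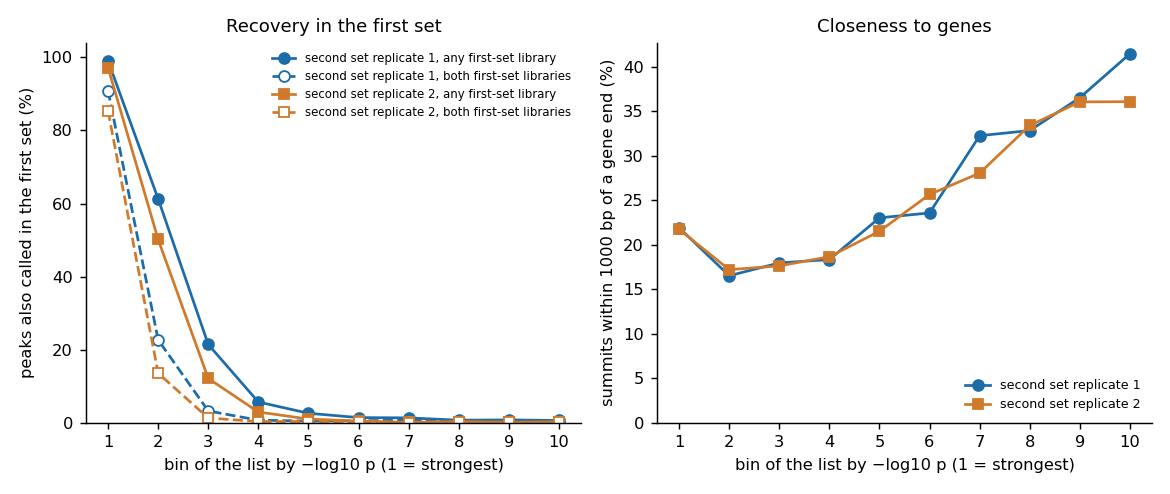
The left panel shows the percent of second-set peaks also called in the first set, by bin of each second-set list ordered by −log10 p (bin 1 is the strongest), with solid lines for any first-set library and dashed lines for both. The right panel shows the percent of peak summits within 1000 bp of a gene end by the same bins. Recovery fell from 99.1% and 97.2% in the strongest bin to under 1% in the weakest, while the gene-end share was 41.5% and 36.1% in the weakest bin against 21.9% and 21.7% in the strongest.

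Second-set-only regions were weaker than shared ones in the second-set lists. Their fold enrichment, the authors' linear ratio of peak signal to local background, had a median of 5.38 in replicate 1 (2.45 to 37.2) and 5.49 in replicate 2 (2.27 to 30.7). Regions in all 4 libraries had medians of 35.2 and 37.9 in the same 2 lists, and 9.66 and 8.63 in the first set. Regions with 1 first-set call lay between, at 13.8 and 14.8. These strengths are tied to the calls that define the regions and are given as a description. The best rank of any second-set-only region was 712 in replicate 1 and 959 in replicate 2, held by different regions, and no region was better than rank 1110 in both. Across the 7989 regions the folds of the 2 second-set libraries had a Spearman rho of 0.79, and across the 1461 shared regions 0.96. Both values cover only regions called in both second-set libraries and leave out the 6256 called in a single one. The median region width was 704 bp, against 1435 bp for shared regions. A region spans all its merged peaks, and shared regions merge peaks of 4 libraries against 2.

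Named chaperone genes show the scale of the shared sites. The region between Hspe1 and Hspd1, which encode the mitochondrial chaperonin pair and share a promoter, had folds of 400.4 and 328.2 in the first set and 1296 and 1210 in the second. Hsph1, an HSP110 chaperone, had 159 and 126 in the first set and 509 and 530 in the second. Bag3, a co-chaperone of HSP70, had 62.8 and 45.1 in the first set and 231 and 255 in the second. Each of these genes had its higher folds in the second set, and folds of different lists are not on a common scale.

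The leading second-set-only regions near genes were of another size. Ywhag, a 14-3-3 adaptor gene, had folds of 24.9 and 28.0 at a summit 738 bp from its 3′ end. A separate region, called in all 4 libraries, had its summit in the promoter window of Ywhag, which holds a 2-unit heat shock element. Etfa, a subunit of the flavoprotein that passes electrons from fatty acid oxidation to the respiratory chain, had 20.1 and 23.3. Msi2, an RNA-binding protein gene, had 19.5 and 24.0.
Nelfa, a subunit of the negative elongation factor that pauses RNA polymerase II, had 21.7 and 19.2 at 61 bp before its start. Cidec, which enlarges lipid droplets by fusion, had 16.1 and 18.9 at 125 bp before its start. Clec14a, an endothelial lectin gene, had 16.7 and 17.7 at 52 bp before its start. Other leading sites near gene ends lay at Mrpl45 (18.1 and 20.4) and at Clu (15.4 and 21.3), the gene of the secreted chaperone clusterin. Col8a2 had 23.9 and 19.1 near its 3′ end. These 9 leading sites near gene ends were all also called in both TXNIP KO libraries, with folds from 13.6 to 26.97.

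At the other end of the list, the last regions near genes were those of Mapk8ip3 (2.99 and 2.57), Gpr137 (3.78 and 2.57), Zfp1 (5.31 and 2.41) and Trim50 (3.49 and 2.46). Of these 4, Zfp1 alone was called in a TXNIP KO library, with a fold of 3.43 in replicate 2. Just outside the rule, the strongest region with a single first-set call lay 30815 bp from Pdgfa and had 7.97 in first-set replicate 1 and 59.5 and 47.2 in the second set. The weakest such region lay 15518 bp from Gm40035 and had 1.62 in first-set replicate 2 and 1.93 and 1.43 in the second set.

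**Figure D2:**
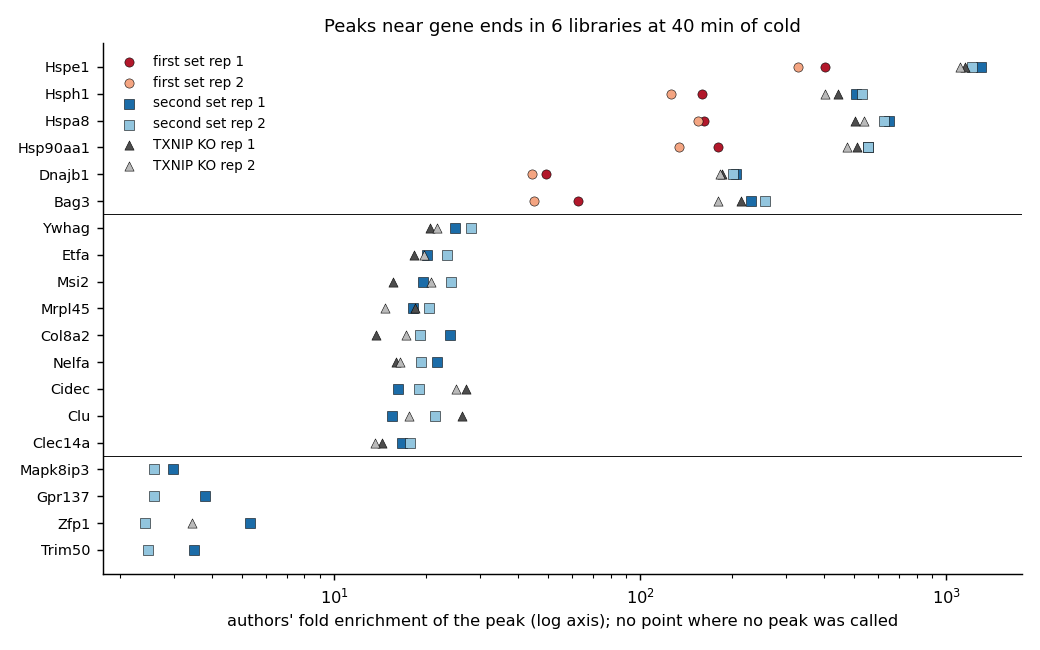
Fold enrichment of named peaks near gene ends, on a log axis, in the 6 libraries taken at 40 min of cold. The top block holds 6 chaperone and co-chaperone genes called in all 4 wild type libraries, the middle block 9 leading second-set-only regions and the bottom block the 4 last. Chaperone genes reached 44.3 to 1296 in the wild type libraries, the leading second-set-only regions 15.4 to 28.0 and the last ones 2.41 to 5.31. There is no point where no peak was called.

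By location, 2152 of the 7989 second-set-only regions (26.9%, Wilson 95% interval 25.98 to 27.9) had a summit no more than 1000 bp from the start or 3′ end of a protein-coding gene, called near a gene end here. A further 3376 (42.3%) lay deeper inside a gene body, 1584 (19.8%) lay between genes within 50 kb and 877 (10.98%) lay farther out. Of the shared regions, 21.9% were near a gene end (19.9 to 24.1), 42.4% in gene bodies, 24.5% between genes within 50 kb and 11.2% beyond. Such intervals cover counting error only, since regions are not replicates. Counted per library, 20.7% and 21.2% of first-set peaks and 26.4% and 25.6% of second-set peaks were near a gene end (means 20.9 ± 0.36 and 26.02 ± 0.59, SD, n = 2 each). The sets did not overlap, with p = 0.33 in the two-sided exact permutation test, again the smallest possible.

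The weaker classes lay closer to genes. Second-set-only regions were divided into 4 strength classes of equal size by the worse of their 2 ranks. The share near a gene end was 16.97% in the strongest class, 19.8% and 28.3% in the next classes and 42.7% in the weakest (40.5 to 44.8). The 2 stronger classes were below the 21.9% of shared regions and the 2 weaker ones above it. The median distance from summit to gene end was 15572 bp in the strongest class and 2641 bp in the weakest. Gene bodies held 46.0% of the strongest and 34.4% of the weakest class. With only peaks of −log10 q of at least 5 in every list, the share near a gene end was 22.8% for second-set-only and 21.8% for shared regions.

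Where the strand of the gene was known, 1632 of 1753 second-set-only regions near a gene end (93.1%) lay at the start and the rest at the 3′ end. Shared regions had 92.02% at the start, and the weakest class of the second-set-only regions 96.1%. Of the second-set-only regions near gene ends, 15.3% were near 2 or more genes at once, as at shared promoters, and 16.3% of the shared ones were.

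**Figure D3:**
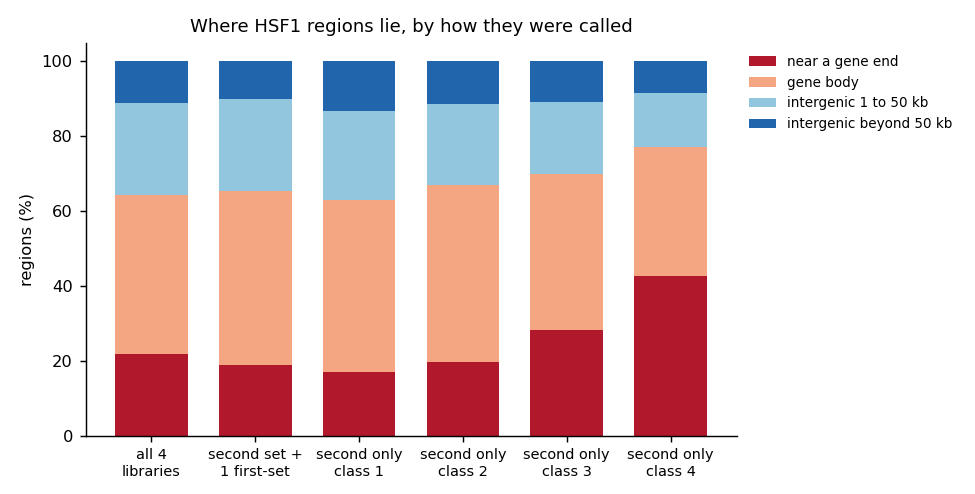
Percent of regions in each location class, for regions called in all 4 libraries, in the second set and 1 first-set library, and in the second set only by strength class (class 1 is the strongest). The part near a gene end went from 16.97% in class 1 to 42.7% in class 4 and was 21.9% in regions of all 4 libraries.

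Away from gene ends, the leading second-set-only region of all lay inside Grik1, a glutamate receptor gene, 177858 bp from its nearest end, with folds of 25.3 and 30.7. Scarb1, the receptor for high-density lipoprotein, had 22.9 and 27.05 inside its body. The other leading gene body sites lay in Faim2 (23.7 and 26.2), Gm12248 (23.1 and 28.5), Grin3a (22.1 and 25.6) and Pla1a (21.7 and 29.7). Between genes, the leading sites lay 115037 bp from Tmem26 (30.3 and 21.3), 42134 bp from Tarbp1 (19.2 and 25.9) and 2162 bp from Usp48 (22.1 and 20.1). The next lay 55582 bp from Bod1 (18.9 and 21.3), 10810 bp from Trim43a (19.1 and 20.2) and 15677 bp from Fgf23 (22.7 and 20.1). A nearest gene is only a position, not a target. The median distance from a second-set-only region to the nearest shared one was 187 kb, and 751 (9.40%) lay within 10 kb of one.

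The 6 libraries that the rule did not use differed in how many of these regions they called. TXNIP KO libraries after 40 min of cold, with 10399 and 10633 peaks, called 71.4% and 72.0% of the second-set-only regions, and both called 4796 (60.03%). The room temperature libraries, with 919 and 1269 peaks, called 27 and 85 regions, and 107 (1.34%) were in at least 1 of them. The 4 h libraries, with 123 and 351 peaks, called 1 and 3. Of the shared regions, 99.9% were in both TXNIP KO libraries, 72.6% in at least 1 room temperature library and 22.7% in at least 1 library at 4 h. List length moves with each of these shares, and its part in them was not tested.

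Strength ordered the calls here too. Both TXNIP KO libraries called 93.3% of the strongest class, 72.1% and 46.9% of the next classes and 27.9% of the weakest. Regions of a single second-set library were in both TXNIP KO libraries in 10.1% of cases. Of the 107 regions called at room temperature, 96 were in the strongest class. Acsl1, which activates long-chain fatty acids, was among them, with a fold of 3.71 in room temperature replicate 2 beside 9.16 and 12.9 in the second set. By location, both TXNIP KO libraries called 55.5% of second-set-only regions near gene ends, 62.1% of those in gene bodies, 63.4% of those between genes within 50 kb and 56.9% of those beyond.

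Promoter sequence differed between the strong and the weak second-set-only sites. A promoter window here runs from 250 bases before to 50 bases after a RefSeq start, and 1050 windows of 993 genes held the summit of a second-set-only region. Motifs were searched on both strands over the whole 300-base window. The 2-unit heat shock element, GAANNTTC or TTCNNGAA, was in 44.5% of the 119 windows of the strongest class (Wilson 95% interval 35.9 to 53.5). The next classes had 17.9% of 179 windows and 15.8% of 297, and the weakest had 9.01% of 455 (6.71 to 12.0). Of the 119 windows with a shared summit, 60.5% held it (51.5 to 68.8), and of all 21263 promoter windows 13.7% did.

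Longer elements were commonest at shared sites. An element of 3 inverted units, each containing the 2-unit match, was in 19.3% of windows with a shared summit and 9.84% of the 61 windows with 1 first-set call. It was in 0.571% of second-set-only windows and in 0.517% of all promoter windows. Where a 2-unit match was present, its median distance from the summit was 21.5 bp in shared windows, with 83.3% within 50 bp. In the strongest class of second-set-only windows it was 25 bp, with 73.6% within 50 bp, and in the weakest 46 bp, with 53.7%.

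GC content moved with strength as well. The median GC content was 61.3% in shared windows and in the strongest second-set-only class, 66.7% in the weakest class and 56.3% over all promoters. Among windows of 60 to 70% GC, the element was in 57.1% of shared windows, 40.9% of the strongest class, 6.83% of the weakest and 8.997% of all promoters. Among windows of 50 to 60% GC the shares were 64.7%, 54.7%, 16.9% and 15.1% in the same order. The strongest class stood above promoters of like GC content in both ranges. At 40 to 50% GC, where windows were few, the element was in 6 of 13 windows of the weakest class (46.2%), 1 of 3 of the strongest and 19.6% of all promoters.

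The GC box GGGCGG, a binding sequence of SP and KLF factors, had the opposite order across the second-set-only classes only. It was in 58.8% of the strongest class and in 76.5%, 79.5% and 82.6% of the following ones. Shared windows held it in 73.9% of cases and all promoters in 46.2%. Within windows of 60 to 70% GC it was in 82.4% of the weakest class and 77.0% of all promoters. Within 50 to 60% GC the shares were 70.4% and 38.5%, and within 40 to 50% GC 30.8% of 13 windows and 9.26%. Within 70 to 80% GC they were 91.4% of 152 windows and 91.8%, with 93.75% of 16 windows in the strongest class. CCGGAAG, a core of ETS factor sites, was in 21.5% of second-set-only windows, 22.7% of shared windows and 11.6% of all. TGACGTCA, the full cAMP response element, was in 4.86% of second-set-only windows, 5.88% of shared windows and 2.23% of all. CCAAT was in 34.0%, 37.0% and 38.2% in the same order. A match says only that these letters are in the window.

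**Figure D4:**
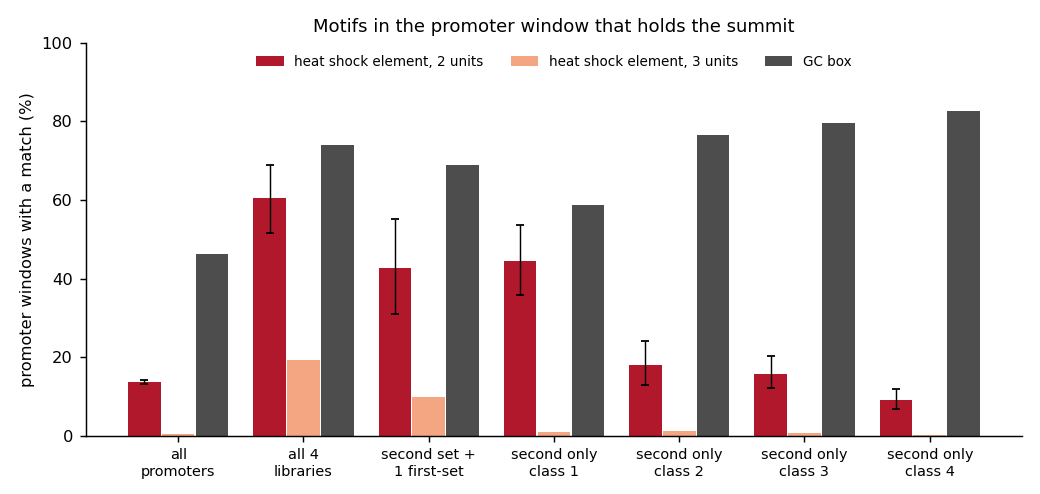
Percent of promoter windows (250 bases before to 50 after the start) that hold a heat shock element of 2 units, one of 3 units, or a GC box, over all promoters and over windows that hold a region's summit. Error bars are Wilson 95% intervals of the 2-unit share and cover counting error. The 2-unit share was 60.5% in windows of all 4 libraries, 44.5% in second-set-only class 1 and 9.01% in class 4, while the GC box went from 58.8% to 82.6% across the classes.

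The windows were also split by the calls in the TXNIP KO libraries. Second-set-only regions that both TXNIP KO libraries called had the 2-unit element in 24.5% of 522 promoter windows. Those called by 1 of them had it in 8.60% of 279 windows, and those called by neither in 8.43% of 249. All 119 windows of the strongest class were among the 522, so this split overlaps the split by strength. The GC box was in 75.1%, 82.8% and 78.7% of the windows in the same order. Within the weakest class the 2-unit element was in 12.0% of 108, 8.18% of 159 and 7.98% of 188 windows.

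Across genes, 2445 of 21887 protein-coding genes (11.2%) had a second-set-only region within 1000 bp of an end, and 371 (1.7%) had a shared region there, with 24 genes having both. These shares are the background for the lists that follow, and no list was tested for enrichment. Among 33 heat shock chaperones and co-chaperones, 26 had a shared region and 5 (15.2%) a second-set-only region. All 8 chaperonin TRiC subunits had a shared region and none a second-set-only one. The 7 chaperone genes without a shared region near an end were Hspa2, Hspa14, Cryab, Dnaja2, Dnajc7, Bag1 and Cdc37.

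The 5 chaperone genes with second-set-only regions were Hspbp1, Dnaja2, Hsp90ab1, Bag1 and Hspa1a, and 3 of them also had a shared region. At Hspa1a, an inducible HSP70 gene, the second-set-only peak (5.38 and 3.60) lay 514 bp past its 3′ end. Hspa1a has a near-identical neighbouring copy, Hspa1b, so reads there are uncertain. Hsp90ab1, the constitutive HSP90 gene, had a second-set-only peak of 3.98 and 4.80 beside its shared one. Dnaja2 (5.77 and 5.49) and Bag1 (5.57 and 4.12), which are partners of HSP70, had no shared region near an end.

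Hspd1 had a small second-set-only peak (4.58 and 6.86) 583 bp past its 3′ end, besides the shared promoter region. Of 14 mitochondrial chaperones and proteases, 4 had a second-set-only region and 3 a shared one, among them the protease genes Htra2 (6.77 and 7.89) and Spg7 (4.23 and 5.02) on the second-set-only side. Of 16 endoplasmic reticulum chaperones, 5 had a second-set-only region, such as P4hb, a disulfide isomerase (4.98 and 6.37), and 4 others a shared one.

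Integrated and oxidative stress genes had 10 of 20 members with a second-set-only region near an end (50%) and none with a shared region. Atf3, a stress-induced repressor, had folds of 10.6 and 8.40 at 173 bp before its start. Nfe2l1, the factor that induces proteasome genes, had 7.97 and 6.51. Hmox1, heme oxygenase, had 6.36 and 8.58, and Nfe2l2, the main regulator of antioxidant genes, had 5.57 and 6.52. Trib3, a target of ATF4, followed with 4.58 and 4.97 near its 3′ end. Among 14 ubiquitin genes and partners, 4 had a second-set-only region, with Stub1, the CHIP ligase, at 6.40 and 5.13 and Vcp, an unfolding ATPase, at 2.99 and 2.74. Of 31 proteasome subunits, 5 (16.1%) did, with Psma6 leading at 6.01 and 4.80, and none had a shared region.

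Lipid droplet and lipolysis genes had 9 of 28 members with a second-set-only region (32.1%) and 2 with a shared one, and 5 of the 9 were in the strongest class. Without second set replicate 1 the count was 14. Plin1, the coat protein that guards the droplet from lipases, had 12.6 and 14.4, and 18.6 and 11 in the TXNIP KO libraries. Cidec had 16.1 and 18.9 in the second set and 26.97 and 25.1 in the TXNIP KO libraries, on scales that are not common to the lists. Pck1, which makes the glycerol backbone for fat storage in adipocytes, had 15.1 and 14.6 near its 3′ end. Acsl1 had 9.16 and 12.9, and Agpat2, an enzyme of triglyceride synthesis, had 8.16 and 9.09.

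Of 28 thermogenic genes, 4 (14.3%) had a second-set-only region near an end, all in the weakest class, and none a shared one. The count was 1 with −log10 q of at least 5, and 11 (39.3%) at 5000 bp, where the share over all genes was 17.2%. These were Cpt2, which completes fatty acid entry into mitochondria (4.58 and 3.94), Esrra, a driver of mitochondrial genes (3.58 and 3.94), Ppara (3.38 and 4.12) and Cidea (4.78 and 3.60). Counting any second-set-only region inside a gene or near its ends, 13 of 28 (46.4%) had one, against 19.0% of all genes. Genes with such a region had a median length of 35.5 kb against 17.2 kb for all genes, and the thermogenic list has a median of 22.1 kb. Ucp1, the uncoupling protein that makes the heat, had none within 1000 bp of an end, and its nearest lay 2417 bp before its start, with 7.37 and 6.003 in the second set and 5.81 and 7.11 in the TXNIP KO libraries. Ppargc1a, the coactivator of mitochondrial genes, is annotated here over 661.6 kb and had shared sites in its body. One of them, 53296 bp from the annotated start, had 15.2 and 21.7 in the first set and 69.7 and 72.9 in the second. Ppargc1a also had 6 second-set-only regions, among them peaks of 8.36 and 8.75, of 6.37 and 3.94 and of 5.18 and 4.80. A second-set-only summit of the weakest class lay 173 bp before a RefSeq start of Ppargc1a.

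Adipocyte transcription factors had 3 of 16 members near an end, with Nr2f2 (9.95 and 11), Cebpb (7.04 and 5.57) and Tcf7l2 (3.42 and 3.55). Inside or near the gene, 11 of 16 had one (68.8%), but the median length of this list is 40.3 kb. Near the annotated start of Pparg, the master regulator of fat cells, a peak was called in second-set replicate 1 alone (4.58). A second-set-only region of the weakest class, with 2.90 and 4.63, had its summit 82 bp before another RefSeq start of Pparg. The nearest second-set-only region to Cebpa lay 9308 bp away, with 4.58 and 3.09. Dio2, which activates thyroid hormone in brown fat, had no region within 50 kb.

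Glucose transport and glycolysis genes had 9 of 22 members near an end (40.9%) and none shared. Pfkm (8.33 and 8.73) and Pkm (7.76 and 8.06) encode regulated steps of glycolysis. Pdk4, which blocks pyruvate entry into mitochondria, had 6.37 and 8.89. Pgk1 had 5.97 and 5.66 and was also called in room temperature replicate 2 (6.25), and Eno1 had 7.96 and 5.37. Slc2a1, the basal glucose transporter gene, held the only region called in both first-set libraries and in neither second-set library. It lay in the gene body, 3842 bp from the 3′ end, with 3.62 and 6.68 in the first set, 5.24 and 3.91 at room temperature and 6.89 and 5.71 at 4 h, and was not called in the TXNIP KO libraries.

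Insulin, AKT and mTORC1 genes had 9 of 23 members near an end (39.1%) and 1 shared. Ddit4, an inhibitor of mTORC1, led with 9.16 and 9.26, followed by the kinase subunit gene Pik3ca (5.49 and 8.14) and the receptor genes Igf1r (5.38 and 5.37) and Insr (5.77 and 5.32). Among 14 TXNIP, arrestin and thioredoxin genes, 5 had a second-set-only region. Txnip, which restrains glucose uptake, had a shared region 206 bp before its start, with 3.87 and 5.01 in the first set and 12.9 and 13.9 in the second. It had a second-set-only region at its 3′ end, with 10.8 and 13.2 in the second set and 9.54 and 10.1 in the TXNIP KO libraries. Prdx1, a peroxide-removing enzyme, had 7.76 and 11.7.

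Respiratory chain and ATP synthase subunits had 14 of 36 members near an end (38.9%) and none shared, with 3 in the strongest class and 6 in the weakest. Cox7c, a subunit of complex IV, had 12.1 and 13.9. Atp5pb, of the ATP synthase stalk, had 9.36 and 9.95, Cycs, cytochrome c, had 7.81 and 7.70, and Atp5b, the catalytic subunit, had 5.97 and 5.83. Translation factors had 8 of 21 (38.1%), led by Eif4g2 at 11.9 and 12.2, and 2 shared. Cytosolic ribosomal proteins had 9 of 34 (26.5%), led by Rpl6 at 7.76 and 7.38, and 2 shared. Splicing factors had 8 of 29 (27.6%) with 2 shared, and RNA polymerase II and elongation genes had 7 of 24 (29.2%) with none shared. Of 15 core histone genes, 3 had one.

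The list of KLF, EGR and other early genes had 11 of 26 members near an end (42.3%) and 2 shared. Egr1, Egr2 and Egr3 had neither kind in the gene or near its ends, nor did Ier2, Ier5, Myc, Socs3 or Srf. Btg1, an antiproliferative gene, had 14.3 and 17 near its 3′ end. Zfp36, which destabilises inflammatory mRNAs, had 10.7 and 11.4 and also a shared region. Ccn1 had 8.36 and 12.3, and Klf9 had 5.57 and 7.2. Of 14 AP-1 genes, 3 had one, with Fos at 9.76 and 10.3 in the second set and 13.3 and 12.2 in the TXNIP KO libraries, and 1 had a shared region. Of 16 cAMP response genes, 4 did, including Creb1 (6.57 and 7.2), and 2 had a shared one. MAP kinase phosphatases had 3 of 11, led by Dusp1 with 5.97 and 9.43 near its 3′ end. Clock genes had 3 of 19 (15.8%), all in the weakest class. The clock count was 0 with −log10 q of at least 5, 6 without second set replicate 1 and 8 without second set replicate 2.

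Marker lists for cells of the depot are short. Over all genes, 11.2% had a second-set-only region near an end and 1.7% a shared one. Of 10 endothelial markers, 2 had a second-set-only region, Cldn5 (6.97 and 8.40) and Esam (5.77 and 5.03), and 2 others a shared one. Of 10 skeletal muscle markers, 1 did, Tnnt3 (3.78 and 4.12). None of 10 leukocyte markers, 5 Schwann cell and nerve markers or 17 olfactory and vomeronasal receptors had either kind near an end. Of 10 brown adipocyte markers, 3 had a second-set-only region (Plin1, Lpl and Cidea) and none a shared one. A ChIP of HSF1 does not measure expression, so these counts do not tell cell shares.

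**Figure D5:**
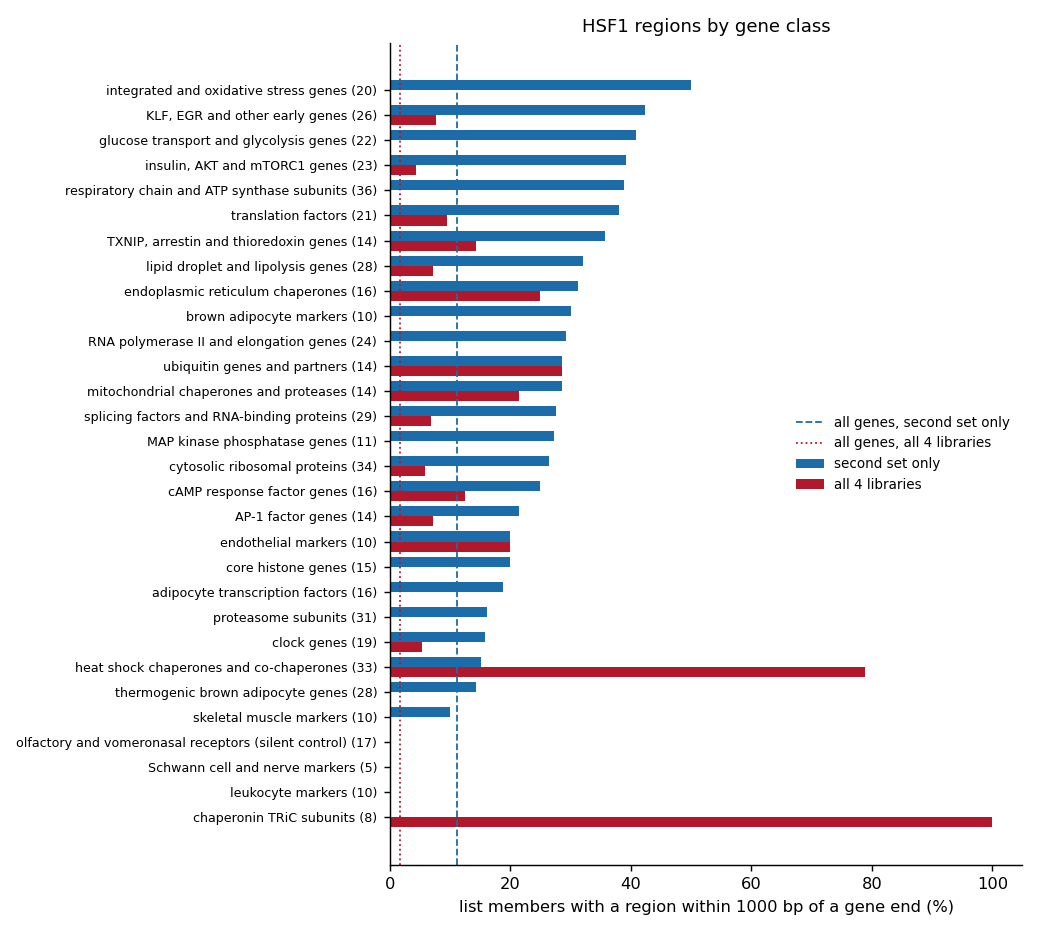
Percent of the members of each gene list with a second-set-only region (blue) or a region of all 4 libraries (red) within 1000 bp of a gene end, with the number of matched members in brackets. Vertical lines give the same shares over all genes, 11.2% and 1.7%. Chaperone and TRiC lists stand high in red, and stress, early, glycolytic, insulin and respiratory lists in blue.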

How the data were processed

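The submitters' processing notes name, without roles, Trim Galore 0.6.0, SAMtools, BWA 0.7.17, deepTools 3.4.3 and MACS2 2.2.7.1, with build GRCm38.p6 (mm10). Which input and which filters stand behind a list is not stated in the sources used here. As deposited by the authors, there is 1 list of narrow peaks per ChIP library, with no pooling of replicates. For each peak the deposited fields used are the fold enrichment (a linear ratio) and the −log10 p-value and −log10 q-value. They served to order and describe peaks within a list.

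Chromosomes 1 to 19, X and Y were kept, and peaks overlapping by at least 1 bp were merged (Python 3.11.15, pandas 2.3.3, NumPy 2.4.6, SciPy 1.17.1). A region took the summit of its strongest peak in second set replicate 2, else in second set replicate 1, else in the first set. Coordinates count from 1. The gene table has 21887 protein-coding genes (GRCm38.p6), and strand came from the RefSeq promoter table, in which promoters of chromosome 18 were not analysed here. Of 562 listed symbols, 561 matched. The planned search 100 bp around summits was not run, since no genome was used.

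The regions, 30 gene lists and tests were chosen with earlier results of these data known. Named genes are the first 10, 6 and 6 second-set-only regions near gene ends, in gene bodies and between genes by the worse rank, the last 4 near ends, up to 5 per list, 13 fixed genes and regions just outside the rule. Genes printed as sequence, and list members named beyond the first 5, were chosen after their values were seen. Of the first 10 near gene ends, 1 is not reported here. Merging and placement were tested on simulated peaks. Alternatives were overlap, q threshold, list length, distance, element length and leaving out each library.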

Additional observations from a re-analysis of the deposited data

How the results depend on the processing

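Cutting every list to its strongest 1670 peaks left 60 second-set-only regions and 15 genes, with 23.3% of the regions near a gene end (23.1% of shared ones) and 100% in both TXNIP KO libraries. With −log10 q of at least 5, the shares near a gene end were 22.8% and 21.8% of second-set-only and shared regions. At 5000 bp they were 41.7% and 36.7%, with 3754 genes, and at 500 bp 21.8% and 16.2%. Elements of 3 units were in 19.3% of shared windows, 0.571% of second-set-only windows, 0.840% of the strongest class and 0.220% of the weakest. Leaving out each library in turn gave 8149 to 12202 regions, the most without second set replicate 1, 26.3% to 27.8% near a gene end (21.1% to 21.9% of shared regions), 43.2% to 63.4% in both TXNIP KO libraries, 2473 to 3621 genes and a peak ratio of 5.95 to 8.15. Without second set replicate 1 the share in both TXNIP KO libraries was 43.2%, and without replicate 2 it was 49.4%, because regions of a single library then count.

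With the replicate numbers of the titles as a block, the peak ratio stayed 6.88 and the exact sign-flip permutation gave p = 0.5, the smallest that 2 pairs allow. Across 1461 shared regions, the deviations of libraries with number 1 had a correlation of -0.01. This value covers shared regions only and cannot tell whether the numbers mark pairs, which the labels do not say. Requiring 50% overlap gave 7926 regions. Of the 30 list counts, 26 moved at equal list length, 11 at 5000 bp, 7 without second set replicate 1, 6 at −log10 q of at least 5, 4 at 500 bp, 3 without second set replicate 2 and 1 without first set replicate 1. Without second set replicate 1 these were lipid droplet (14), ribosomal (15), adipocyte factor (7), AP-1 (6), clock (6), histone (5) and Schwann cell (1) lists. Without second set replicate 2 they were clock (8), heat shock chaperone (8) and brown adipocyte marker (5) lists, and without first set replicate 1 the olfactory list (1). At −log10 q of at least 5 they were endoplasmic reticulum chaperone (3), proteasome (3), thermogenic (1), olfactory (1), clock (0) and muscle (0) lists. Strength classes by rank in a single second-set library, chosen after seeing the data, gave 45.5% and 40.5% of strongest and 9.72% and 9.21% of weakest windows with the 2-unit element. Lists without counts give no depth, so a site missing from the first set may lie under its threshold.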

Other observations

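Some genes held many second-set-only regions along their length. Arhgap26 had 18 over 774.7 kb, Pakap had 17 over 463 kb and Zbtb20, a zinc finger repressor, had 16 over 759 kb. Tns1, a focal adhesion protein gene, had 14 over 214 kb. Septin9, Zmiz1, Mbnl2 and Mtss1 had 11 each, over 143 to 209 kb. In all, 4161 of 21887 genes (19.0%) had at least 1 such region in the gene or within 1000 bp of its ends.

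Of the 5837 second-set-only regions away from the ends of protein-coding genes, 214 (3.67%) had their summit near the start of a noncoding gene, against 4.91% of the shared regions. The share was 3.07% in the strongest class and 5.59% in the weakest.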
